A study of Mus musculus with 100 samples.

Results

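The response of the knee joint to rupture of the anterior cruciate ligament (ACL) was compared between STR/ort and MRL/MpJ mice at 1-week post-injury. The comparison was the interaction of strain and injury, that is, the log2 ratio of injured to uninjured joints in STR/ort minus the same log2 ratio in MRL/MpJ, tested for every gene. Its members were set by the strain, joint and time labels, which gave 18 of the 100 libraries of the series: 5 injured and 4 uninjured libraries of STR/ort and 5 injured and 4 uninjured libraries of MRL/MpJ. All mice were 10 weeks old at injury. A single overload of tibial compression ruptured the ACL of the right knee, and the uninjured group was made of the contralateral joints of injured mice, so those joints belonged to animals that carried an injury elsewhere. Whole joints were sequenced after most soft tissue had been cut away, with traces of it left, and all 18 libraries were of the same sequencing batch. C57BL/6 joints of the same time, 5 injured and 5 uninjured, entered the fit and are given for reference. The labels give joints replicate numbers and library numbers, which alternate between injured and uninjured joints in places, but do not say which joints came from one mouse.

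STR/ort mice develop osteoarthritis spontaneously with age, whereas MRL/MpJ mice are known for unusually good healing of ear and cartilage wounds. After a joint injury the synovium, the membrane that lines the joint, thickens and lays down matrix, macrophages are recruited and replaced, and the muscle around the knee wastes and regenerates. An interaction can come from either side: a gene may have responded in one strain and not in the other, or its level in the uninjured joints of one strain may already have been raised.

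The 18 libraries held 7520285 to 12253482 counted reads each. Defining markers of cartilage (Col2a1, Acan), bone (Bglap, Ibsp), synovium (Prg4), muscle (Myh4, Tnnt3) and bone marrow (Elane, Ngp) were detected in every library, so the labelled tissue was a mixture of these. In such bulk samples fewer cells of a type and less RNA per cell cannot be told apart. The contralateral joints of STR/ort stood apart from joints of uninjured 0-day mice of the same strain and batch: 2324 of 17310 genes (13.4%) differed between these groups, 959 higher (5.54%) and 1365 lower (7.89%), whereas the same comparison in MRL/MpJ called 0 genes (edgeR, with 847 genes at an unadjusted p below 0.05, and 0 genes called by DESeq2). The summed level of 24 fast muscle genes was 135792 to 156497 CPM (counted reads scaled to a common library size) in the 0-day joints of STR/ort, 49263 to 90097 CPM in its contralateral joints and 26305 to 57250 CPM in its injured joints. In MRL/MpJ these ranges were 122003 to 154368, 108288 to 158416 and 80763 to 135996 CPM. A summed level of 12 synovial lining and fibroblast genes was 3100 to 6761 CPM at 0-day and 6778 to 19603 CPM in the contralateral joints of STR/ort, the highest value being that of replicate 2, against 1402 to 1841 and 1693 to 1807 CPM in MRL/MpJ. Prg4, which encodes the joint lubricant, makes up most of the synovial sum. With the summed fast muscle level as a covariate, the interaction described below called 395 genes, among them 151 of the 153 called without it. That level was measured in the same joints after injury and itself differed between injured and uninjured joints. The part of tissue levels in the results, that of muscle included, was not tested. The counts of genes and several named genes are given again against the 0-day joints further on, and without uninjured STR/ort replicate 2 the interaction called 159 genes, 57 higher and 102 lower, 116 of them shared with the full set.

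A total of 153 of 17310 genes (0.884%) responded differently in the strains, by an adjusted p below 0.05 in edgeR's quasi-likelihood test with Benjamini-Hochberg adjustment over all genes and a ratio of the fold changes above 1.5. Of these, 63 (0.364%) had the higher response in STR/ort and 90 (0.52%) the lower. These shares are the background for every count of called list members below. An unadjusted p below 0.05 was reached by 2223 of the 17310 genes. For comparison, injury itself called 1594 genes (9.21%) in STR/ort, 982 up (5.67%) and 612 down (3.54%), and 541 genes (3.13%) in MRL/MpJ, 508 up (2.93%) and 33 down (0.191%). Leaving out MRL/MpJ uninjured replicate 1 or 2 or STR/ort injured replicate 1 gave 96, 100 and 100 calls, and leaving out MRL/MpJ injured replicate 3 gave 240. DESeq2 called 230 genes, 151 of them among the 153. Among the 63 higher genes, 49 were called up in STR/ort and not called in MRL/MpJ, 9 were up in both, 2 were called down in MRL/MpJ only and 3 were called in neither. Their median log2 response was 1.33 in STR/ort and 0.16 in MRL/MpJ, beside medians over all genes tested of -0.03 and -0.0056. Among the 90 lower genes, 43 were called up in MRL/MpJ only, 32 were called down in STR/ort only, 5 were called in opposite directions, 3 were up in both and 7 were called in neither. The median log2 response of the 90 was -0.44 in STR/ort and 0.80 in MRL/MpJ. In C57BL/6, where injury called 5.82% of all genes, 4.75% up and 1.07% down, the median was 0.48 for the higher genes with 24 up, and 0.47 for the lower genes with 38 up and 4 down. The C57BL/6 response lay nearer to that of MRL/MpJ than to that of STR/ort for 53 of the 63 and 81 of the 90. Both sets were chosen on the STR/ort and MRL/MpJ responses. No share over all genes was computed, so these counts describe the sets and test nothing. In the uninjured joints, on which the lower genes were in part called, 72 of the 90 had a called higher level in STR/ort and 2 a lower one, where 13.7% and 10.7% of all genes did (24.4% in all). Since the 90 were chosen with these libraries, that count is a description and no test. In the injured joints 41 were called higher and 12 lower, beside 15% and 14.5% of all genes (29.5% in all). At 0-day 53 of the 90 were called higher in STR/ort and 3 lower, beside 8.34% and 6.44% of all genes (14.8% in all).

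**Figure D1:**
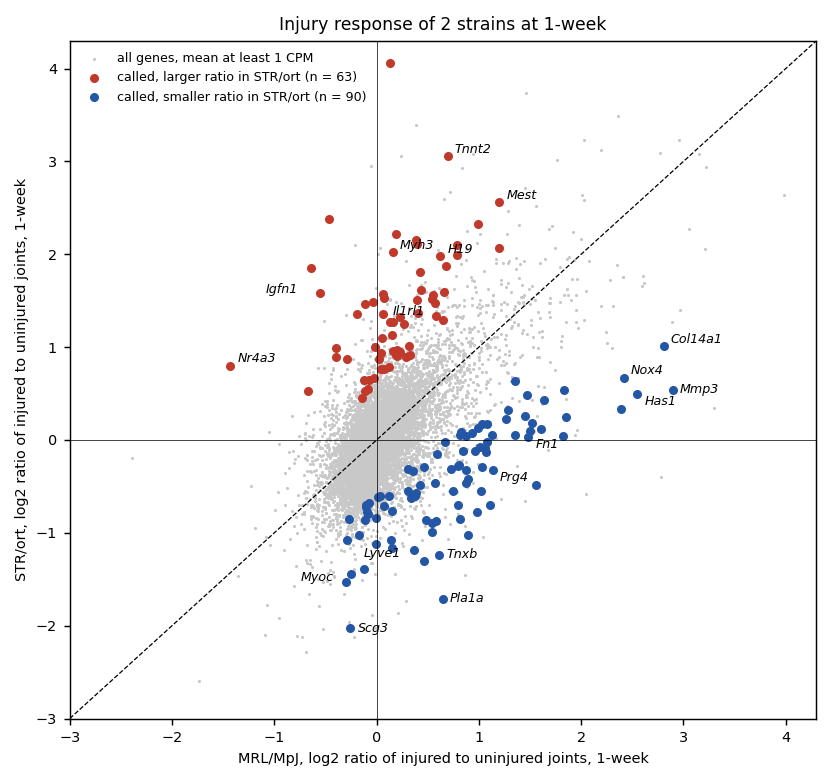
Log2 ratio of injured to uninjured joints at 1-week in MRL/MpJ (x axis) and STR/ort (y axis), with grey points for genes of at least 1 CPM on average, red for the 63 genes with the larger and blue for the 90 with the smaller ratio in STR/ort, and a dashed line of equal ratios. The red points lie above the line around an MRL/MpJ median of 0.16, and 48 of the blue points lie where MRL/MpJ is above 0 and STR/ort below.

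Several genes with a lower response in STR/ort encoded extracellular matrix of tendon, ligament and synovium. Those described here rose after injury in MRL/MpJ, while in STR/ort Col14a1 rose less, Tnxb fell, and Fn1, Prelp and Dcn did not pass. Of 40 measured fibrous matrix genes, 3 had a lower response (Col14a1, Fn1, Dcn), 2 a higher one (Col12a1, Acta2), and 35 did not pass. Over all genes 0.52% were lower and 0.364% higher. The median interaction of the 40 was 0.18, with 21 positive and 19 negative, so the list as a whole was not lower. Col14a1 (chr15:55307644-55520803 in the mm10 build), which encodes a collagen that binds the surface of collagen fibrils, was measured at 23.7, 20, 26.8 and 26.5 CPM in the uninjured and 187, 172, 171, 166 and 154 CPM in the injured joints of MRL/MpJ. In STR/ort it was at 217, 215, 100.1 and 179.9 CPM uninjured and 366, 362, 352, 347 and 358 CPM injured. It rose in both strains without overlap of the groups, but 3 of the 4 uninjured STR/ort joints already lay within or above the injured range of MRL/MpJ, and the interaction was -1.80 ± 0.21 (log2, SE; adjusted p = 1.31e-05). Fn1, fibronectin, was at 1028, 912, 1023 and 1261 CPM uninjured and 2982, 2909, 2922, 2907 and 3048 CPM injured in MRL/MpJ. The STR/ort joints held 8208, 12876, 4019 and 7949 CPM uninjured and 9744, 9934, 7927, 7084 and 7620.2 CPM injured, with full overlap of the groups, and the interaction was -1.45 ± 0.26 (adjusted p = 0.00271). Tenascin-X, encoded by Tnxb and known to space collagen fibrils, fell in STR/ort from 126 ± 43.5 CPM (SD, n = 4) to 53.1 ± 10.6 CPM (n = 5) and rose from 44.1 ± 3.46 to 67.4 ± 11.4 CPM in MRL/MpJ (interaction -1.85 ± 0.23, adjusted p = 3.11e-05). The small proteoglycan genes Prelp and Dcn rose in MRL/MpJ, by 1.35 ± 0.15 and 0.82 ± 0.12 on the log2 scale, and their STR/ort responses were 0.05 ± 0.14 and 0.06 ± 0.11. Against joints of uninjured 0-day mice, a comparison described further on, Col14a1 and Tnxb kept their calls, whereas the strain difference of Fn1 was -0.02 ± 0.25 (adjusted p = 0.967), with injured joints above 0-day by 1.47 in STR/ort and 1.49 in MRL/MpJ. That of Prelp was -0.29 ± 0.22 (adjusted p = 0.37) and that of Dcn turned to 0.03 ± 0.16 (adjusted p = 0.92).

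A few genes of the joint lining and its lubricant also had a lower response in STR/ort. Of the 12 synovial lining and fibroblast genes 3 had a lower response (Prg4, Clic5, Has1) and 9 did not pass, and of 24 cartilage genes 2 had a lower response (Prg4, Comp) and 22 did not pass. Prg4 (chr1:150449412-150466221) encodes lubricin, the lubricant of the joint surface. In MRL/MpJ it was measured at 1296, 1269.5, 1208 and 1255 CPM uninjured and 3028, 2794, 2845, 2671 and 2457 CPM injured, and in STR/ort at 8845, 18336, 6163 and 9081 CPM uninjured and 7645, 9381, 10754, 6982 and 7530.3 CPM injured. All MRL/MpJ injured libraries were above all uninjured ones, whereas the STR/ort groups overlapped, with uninjured replicate 2 the highest of all 18 libraries. The interaction of Prg4 was -1.46 ± 0.27 (adjusted p = 0.00373). Has1, a synthase of hyaluronan, rose by 2.55 ± 0.42 in MRL/MpJ, with a response of 0.50 ± 0.29 in STR/ort. Comp, a matrix protein of cartilage and tendon, had an interaction of -1.08 ± 0.26 (adjusted p = 0.0291). Angptl7, a secreted angiopoietin-like protein, and Myoc, myocilin, fell in STR/ort, with responses of -1.12 ± 0.19 and -1.44 ± 0.19, beside -0.01 ± 0.19 and -0.25 ± 0.22 in MRL/MpJ, neither of which passed. Clic5, an intracellular chloride channel protein, likewise fell in STR/ort, with a response of -1.53 ± 0.21. The calls of Has1, Myoc, Angptl7, Comp and Clic5 were lost in 15, 10, 9, 8 and 8 of 29 other processing settings, most of which leave out 1 library. Against 0-day joints Has1 and Clic5 kept their calls and Prg4, Comp, Angptl7 and Myoc did not.

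**Figure D2:**
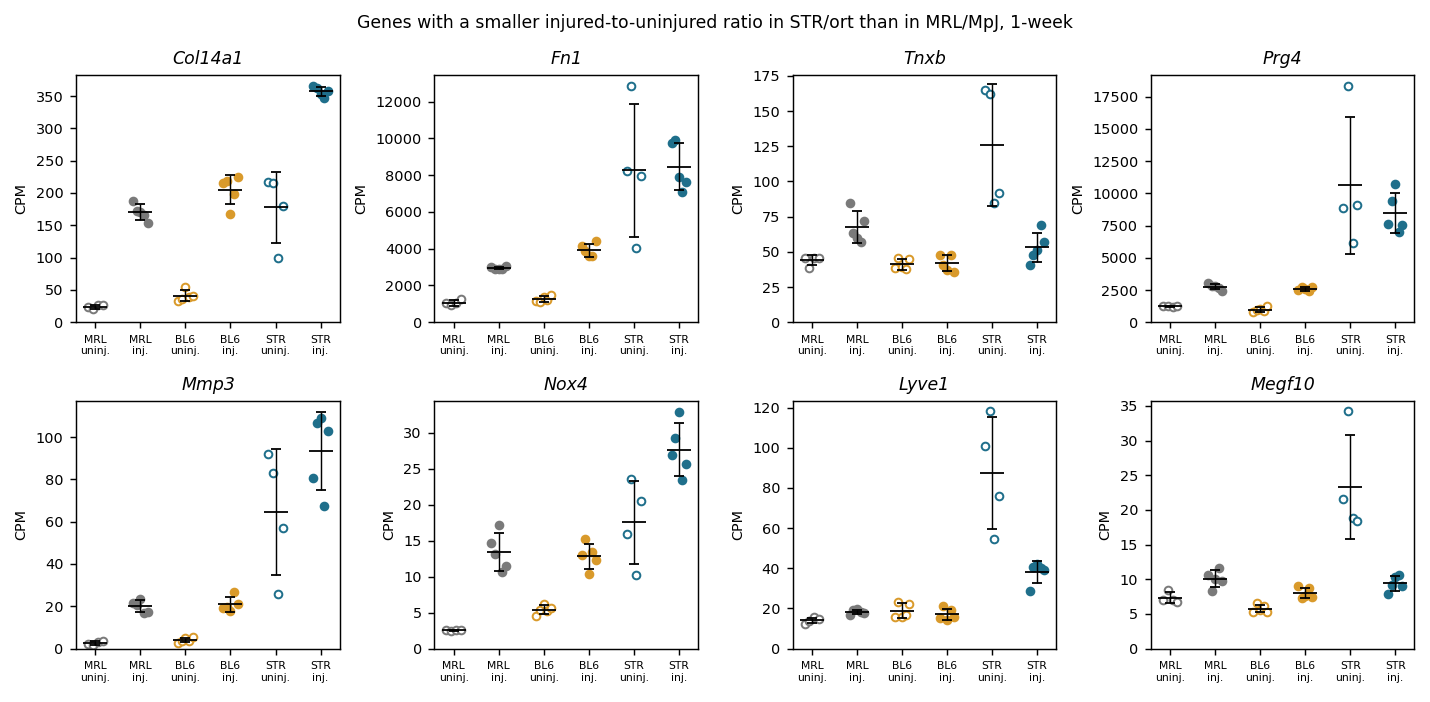
CPM (y axis, from 0) of 8 genes with a lower response in STR/ort, in uninjured (open) and injured (filled) joints of MRL/MpJ, C57BL/6 (BL6) and STR/ort at 1-week, with points for libraries and bars for mean ± SD (n = 4 or 5). Uninjured STR/ort libraries lie high and spread widely, and those of Mmp3 lie above every injured MRL/MpJ library.

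Mmp3 and Nox4, which encode a matrix-degrading and an oxidant-producing enzyme, were raised by injury more in MRL/MpJ than in STR/ort. Of 35 metallopeptidase genes, edgeR called Mmp3 only, with a lower response in STR/ort, and DESeq2 called 1 higher and 3 lower. The product of Mmp3 is stromelysin-1, which cleaves proteoglycans and activates other matrix metallopeptidases. Its mRNA was measured at 2.12, 1.73, 3.17 and 3.53 CPM uninjured and 21.6, 20.7, 23.4, 16.8 and 17.3 CPM injured in MRL/MpJ. In STR/ort it was at 92.2, 83.1, 26 and 57 CPM uninjured and 80.7, 107, 109, 67.6 and 103 CPM injured, so that the uninjured STR/ort joints lay above every injured MRL/MpJ joint. The interaction was -2.35 ± 0.39 (adjusted p = 0.00133), which corresponds to a ratio of the fold changes of 0.196. Nox4, a NADPH oxidase that produces hydrogen peroxide, rose by 2.41 ± 0.21 in MRL/MpJ and by 0.67 ± 0.16 in STR/ort (interaction -1.74 ± 0.27, adjusted p = 7.80e-04). Neither gene kept its call against 0-day joints. The aggrecanase gene Adamts5, picked here after its values were seen, had a response of -0.55 ± 0.12 in STR/ort and 0.31 ± 0.13 in MRL/MpJ.

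The 250 bases before the start of Mmp3 (GRCm38.p6, chr9:7445572-7445821, plus strand) are shown because this gene had the largest strain difference in level among the matrix enzymes named, and they hold 1 match to the AP-1 motif TGANTCA, searched on both strands and set in capitals, whose first base lies 46 bases before the start. The motif was found in 2217 of 32851 windows of the same length before transcript starts (6.75%). The windows of Has1, Inhba and Il1rl1 were also searched and hold 0 matches.
Mmp3: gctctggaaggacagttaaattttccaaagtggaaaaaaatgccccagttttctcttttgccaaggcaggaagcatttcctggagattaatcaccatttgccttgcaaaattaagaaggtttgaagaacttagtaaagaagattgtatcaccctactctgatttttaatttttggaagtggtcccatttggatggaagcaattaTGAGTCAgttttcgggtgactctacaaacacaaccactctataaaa

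A few genes of macrophages, some of them markers of cells that live in the tissue, had a lower response in STR/ort. Of 24 monocyte and macrophage genes 3 had a lower response in STR/ort (Lyve1, Gpnmb, Folr2), 0 a higher one, and 22 had a negative interaction, beside 54.4% of all genes. In a list of 10 genes of resident macrophages, added after results were seen, 3 passed (Lyve1, Folr2, Vsig4). Lyve1, a hyaluronan receptor of lymphatic vessels and perivascular macrophages, was at 101, 118, 54.7 and 75.8 CPM uninjured and 28.9, 40.8, 42.1, 39.9 and 39.4 CPM injured in STR/ort, a fall without overlap, and at 12.3, 13.7, 15.6 and 14.5 CPM uninjured and 16.6, 19, 19.7, 18 and 17.6 CPM injured in MRL/MpJ (interaction -1.56 ± 0.24, adjusted p = 6.12e-04). The folate receptor gene Folr2 rose in MRL/MpJ from 5.18 ± 0.92 to 10.5 ± 1.27 CPM and was 25.8 ± 11.1 CPM uninjured and 17.5 ± 2.65 CPM injured in STR/ort. Vsig4, a complement receptor of macrophages, had an interaction of -1.76 ± 0.38 (adjusted p = 0.0152) and Gpnmb, a glycoprotein of lipid-laden macrophages, of -1.19 ± 0.23 (adjusted p = 0.00791). Against 0-day joints none of these 4 genes kept its call, with strain differences between -0.51 for Vsig4 and 0.01 for Folr2 and adjusted p-values from 0.153 for Lyve1 to 0.996 for Folr2. The summed level of the 24 genes was 4830 to 5823 CPM in uninjured and 4285 to 4924 CPM in injured STR/ort joints, and 3137 to 3634 and 3134 to 3702 CPM in those of MRL/MpJ. Complement C4b, of which a near-identical copy lies nearby in the genome, rose in MRL/MpJ by 0.89 ± 0.20 and had a response of -0.42 ± 0.16 in STR/ort. It was 1 of 21 complement genes to pass, and its call was lost against 0-day joints.

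All 16 measured neutrophil genes had a negative interaction, beside 54.4% of all genes, with a median of -0.50 beside -0.03 over all genes tested. All 16 had an unadjusted p below 0.05, beside 2223 of 17310 genes in either direction. Only Chil3, a chitinase-like lectin with close paralogues, passed both thresholds (-0.59 ± 0.15, adjusted p = 0.0476). That call was lost in 21 of 29 other processing settings, DESeq2 called 0 of the 16, and against 0-day joints the strain difference of Chil3 turned to 0.08. In STR/ort 9 of the 16 fell on injury and in MRL/MpJ 0 did, beside 3.54% and 0.191% of all genes, so that the count in MRL/MpJ is near the background. The summed level of the list was 15487 to 20700 CPM in uninjured and 9443 to 13317 CPM in injured STR/ort joints, without overlap, and 18430 to 20023 and 15603 to 20575 CPM in those of MRL/MpJ. At 0-day the STR/ort range was 13921 to 16415 CPM.

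Some genes of guidance cues and hedgehog co-receptors also had a lower response in STR/ort. Of 24 genes for class 3 semaphorins, netrins and their receptors, a list added after results were seen, 3 had a lower response (Sema3e, Sema3a, Ntn1) and 0 a higher one. Sema3e, a secreted repellent of vessels and axons, fell in STR/ort from 34.8, 49.7, 21.9 and 32.6 CPM to 16, 20.1, 20.2, 18 and 21.2 CPM. In MRL/MpJ it was at 6.92, 7.13, 4.65 and 6.96 CPM uninjured and 12.8, 10.9, 13.3, 11.2 and 7.95 CPM injured, a rise. Relative to their contralateral joints the strains thus moved in opposite directions (interaction -1.67 ± 0.26, adjusted p = 8.09e-04). Netrin-1, Ntn1, rose by 0.75 ± 0.17 in MRL/MpJ beside -0.55 ± 0.14 in STR/ort, and Sema3a had an interaction of -1.07 ± 0.19 (adjusted p = 0.00308). Among 15 hedgehog genes, also an added list, the co-receptor genes Boc and Cdon rose in MRL/MpJ by 0.93 ± 0.11 and 1.08 ± 0.15, beside 0.07 ± 0.10 and 0.17 ± 0.14 in STR/ort. Scube2, which helps to release hedgehog ligands, went the other way, up in STR/ort by 1.81 ± 0.20 and 0.42 ± 0.23 in MRL/MpJ. Against 0-day joints Scube2 kept its call and the 5 lower genes did not, with strain differences between -0.51 for Sema3e (adjusted p = 0.221) and 0.04 for Ntn1 (adjusted p = 0.933). For all 5 the injured joints of both strains lay above 0-day. Sema3e was above by 0.42 ± 0.19 in STR/ort (adjusted p = 0.0657) and 0.94 ± 0.23 in MRL/MpJ, and Ntn1 by 0.62 ± 0.16 and 0.58 ± 0.17.

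The smallest adjusted p-values of all belonged to genes of this direction. Cadm3, a neural adhesion molecule, fell from 33.1 ± 8.18 to 17.9 ± 1.83 CPM in STR/ort and was 13 ± 0.895 CPM uninjured and 19.5 ± 1.91 CPM injured in MRL/MpJ (interaction -1.46 ± 0.17, adjusted p = 1.31e-05). Megf10, an engulfment receptor also found in muscle satellite cells, was at 21.6, 34.3, 18.9 and 18.4 CPM uninjured and 7.94, 9.09, 10.3, 10.5 and 9.05 CPM injured in STR/ort and 7.03, 8.51, 6.93 and 6.76 CPM uninjured and 10.6, 8.3, 9.96, 11.6 and 9.72 CPM injured in MRL/MpJ (interaction -1.77 ± 0.21). In STR/ort the injured joints were below all uninjured ones and the gene fell, while the injured joints of the strains overlapped and differed by -0.10 ± 0.14 (STR/ort minus MRL/MpJ, adjusted p = 0.579). Ccdc3, a secreted protein of fat and vessels, and Pcsk6, a proprotein convertase, fell in STR/ort, with responses of -0.86 ± 0.11 and -1.08 ± 0.12. Pla1a, a phospholipase of phosphatidylserine, had the interaction farthest from 0 among the 12 lower genes of smallest p, at -2.35 ± 0.36, with 37 ± 21.4 CPM uninjured and 11.2 ± 2.11 CPM injured in STR/ort and 5.0 ± 1.14 and 7.85 ± 0.36 CPM in MRL/MpJ. Ntrk3, the receptor of neurotrophin-3, had an interaction of -1.92 ± 0.31 (adjusted p = 9.29e-04). The remaining called members of the lists were Klf4, an epithelial and vascular transcription factor, at -0.74 ± 0.19, and the skin gene Sbsn at -1.40 ± 0.35, whose calls were lost in 16 and 13 of 29 other settings. Against 0-day joints Megf10, Ntrk3 and Klf4 kept their calls and Cadm3, Ccdc3, Pcsk6, Pla1a and Sbsn did not. Relative to 0-day, injured STR/ort joints stood at -0.06 ± 0.12 for Cadm3, 0.13 ± 0.11 for Ccdc3, -0.16 ± 0.12 for Pcsk6 and -0.38 ± 0.14 for Megf10. The falls above are thus relative to contralateral joints. The summed level of 5 skin genes was 30.3 to 66.2 CPM uninjured and 39.5 to 65.9 CPM injured in STR/ort, and 11.9 to 16.1 and 16.9 to 25 CPM in MRL/MpJ.

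Among genes with the higher response in STR/ort, Il1rl1 had the smallest adjusted p. Of 12 genes of this family, a list added after results were seen, 2 passed (Il1rl1, Il1r1), both higher. Il1rl1 (chr1:40404864-40465418) encodes ST2, the receptor of the alarmin interleukin-33. In STR/ort it rose from 32.2, 31, 30.8 and 27.5 CPM uninjured to 102, 117, 102, 54.6 and 61.5 CPM injured, whereas MRL/MpJ joints held 20.9, 27.3, 31.5 and 27.7 CPM uninjured and 27.5, 30.7, 27.7, 28.6 and 26.8 CPM injured. Every injured STR/ort library was above every other library of both strains, and the MRL/MpJ groups overlapped (interaction 1.45 ± 0.23, adjusted p = 7.80e-04). Il1r1, the signalling receptor of interleukin-1, rose in STR/ort from 63.1 ± 8.13 to 127 ± 17.7 CPM and was 43.6 ± 4.52 CPM uninjured and 54.2 ± 4.93 CPM injured in MRL/MpJ (interaction 0.69 ± 0.14, adjusted p = 0.00965). The ligands did not pass: the interaction was 0.05 ± 0.33 for Il33 (adjusted p = 0.982), which was called up by 1.48 and 1.44 in the strains, and 0.13 ± 0.35 for Il1b (adjusted p = 0.932).

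The imprinted genes H19 and Mest had a higher response in STR/ort. Of 13 imprinted genes of fetal growth, a list added after results were seen, 11 did not pass, and 12 had a positive interaction beside 45.6% of all genes tested. H19, a non-coding RNA known to return in regenerating muscle, was at 585, 793, 592 and 538 CPM uninjured and 3546, 2332, 2180.4, 2656 and 1627 CPM injured in STR/ort. The MRL/MpJ joints held 423, 411, 374 and 340.5 CPM uninjured and 503, 541, 753, 640.3 and 547 CPM injured. Both strains rose without overlap, by 1.98 ± 0.19 and 0.62 ± 0.18, and the interaction was 1.35 ± 0.25 (adjusted p = 0.0045). Mest, a mesoderm marker of the hydrolase family, rose by 2.56 ± 0.20 in STR/ort, 1.20 ± 0.22 in MRL/MpJ and 2.29 ± 0.20 in C57BL/6. Against 0-day joints Mest kept its call, and the strain difference of H19 turned to -0.11 ± 0.25 (adjusted p = 0.808).

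Tnnt2, Myh3 and Chrna1, which muscle makes during development, regeneration or loss of its nerve, rose in STR/ort. Of 20 genes of muscle regeneration and denervation 9 rose in STR/ort and 2 in MRL/MpJ, beside 5.67% and 2.93% of all genes. Of the same 20, 2 had a higher response (Myh3, Chrna1), 0 a lower one, and 18 had a positive interaction, beside 45.6% of all genes, with a median of 0.59. None of 24 fast muscle genes passed (edgeR, with 3 at an unadjusted p below 0.05, and 0 called by DESeq2), and their median interaction was -0.30. Of these 24, 20 had a negative interaction, beside 54.4% of all genes. On injury 13 fell in STR/ort and 0 in MRL/MpJ, beside 3.54% and 0.191% of all genes. Tnnt2 (chr1:135836315-135852268), cardiac troponin T, which fetal and regenerating skeletal muscle also makes, was not in the list and rose from 4.42, 5.85, 3.24 and 4.3 CPM to 56.6, 39.5, 31.6, 35.6 and 20.1 CPM in STR/ort. It was at 4.8, 2.65, 2.77 and 2.92 CPM uninjured and 4.57, 4.35, 6.5, 4.19 and 6.77 CPM injured in MRL/MpJ. The injured STR/ort libraries were all above the others, and the interaction was 2.36 ± 0.44 (adjusted p = 0.0045), the farthest from 0 of the 12 higher genes of smallest p. Myh3, embryonic myosin heavy chain, was at 4.54, 6.45, 3.57 and 3.84 CPM uninjured and 20.5, 25.6, 13.5, 24.7 and 8.85 CPM injured in STR/ort and at 7.59, 4.95, 5.74 and 4.03 CPM uninjured and 6.21, 6.19, 7.88, 5.3 and 5.4 CPM injured in MRL/MpJ (interaction 1.86 ± 0.45, adjusted p = 0.0329). Chrna1, the acetylcholine receptor subunit that muscle makes in quantity when it loses its nerve, rose from 3.53, 6.09, 3.08 and 3.28 to 21.5, 17.4, 22.3, 17.5 and 6.86 CPM in STR/ort beside 6.81, 4.26, 4.95 and 4.64 and 7.03, 5.8, 9.53, 5.58 and 5.69 CPM in MRL/MpJ (interaction 1.72 ± 0.44, adjusted p = 0.0482). Replicate 5 was the lowest of the injured STR/ort libraries for both genes, and the calls of Myh3 and Chrna1 were lost in 12 and 17 of 29 other processing settings, several of which leave out 1 library. Against 0-day joints Tnnt2 and Myh3 kept their calls and Chrna1 did not (0.75 ± 0.40, adjusted p = 0.179).

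The 250 bases before a transcript start of Tnnt2 that lies inside the gene's stated span (chr1:135836084-135836333, plus strand) and before the start of Chrna1 (chr2:73580339-73580588, minus strand) are shown because muscle regulatory factors bind E-boxes. Each holds 2 matches to the E-box CAGCTG in capitals, which reads the same on both strands, with the first bases 223 and 157 bases before the start in Tnnt2 and 92 and 44 bases before it in Chrna1. Also searched and not shown, a second Tnnt2 window and the window of Myh3 hold 0 matches, and that of Has1, a gene of lower response, holds 1. The motif was in 4271 of the 32851 windows (13%). A match is a description of the letters only.
Tnnt2: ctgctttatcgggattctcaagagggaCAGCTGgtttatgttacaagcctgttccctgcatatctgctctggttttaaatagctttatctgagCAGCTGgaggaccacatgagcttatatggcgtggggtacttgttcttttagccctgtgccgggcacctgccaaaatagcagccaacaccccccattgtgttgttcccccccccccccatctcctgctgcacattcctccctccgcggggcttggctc
Chrna1: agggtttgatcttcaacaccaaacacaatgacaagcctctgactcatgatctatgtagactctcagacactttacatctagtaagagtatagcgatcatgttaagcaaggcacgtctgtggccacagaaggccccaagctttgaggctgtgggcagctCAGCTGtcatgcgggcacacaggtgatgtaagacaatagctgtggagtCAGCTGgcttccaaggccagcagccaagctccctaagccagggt

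**Figure D3:**
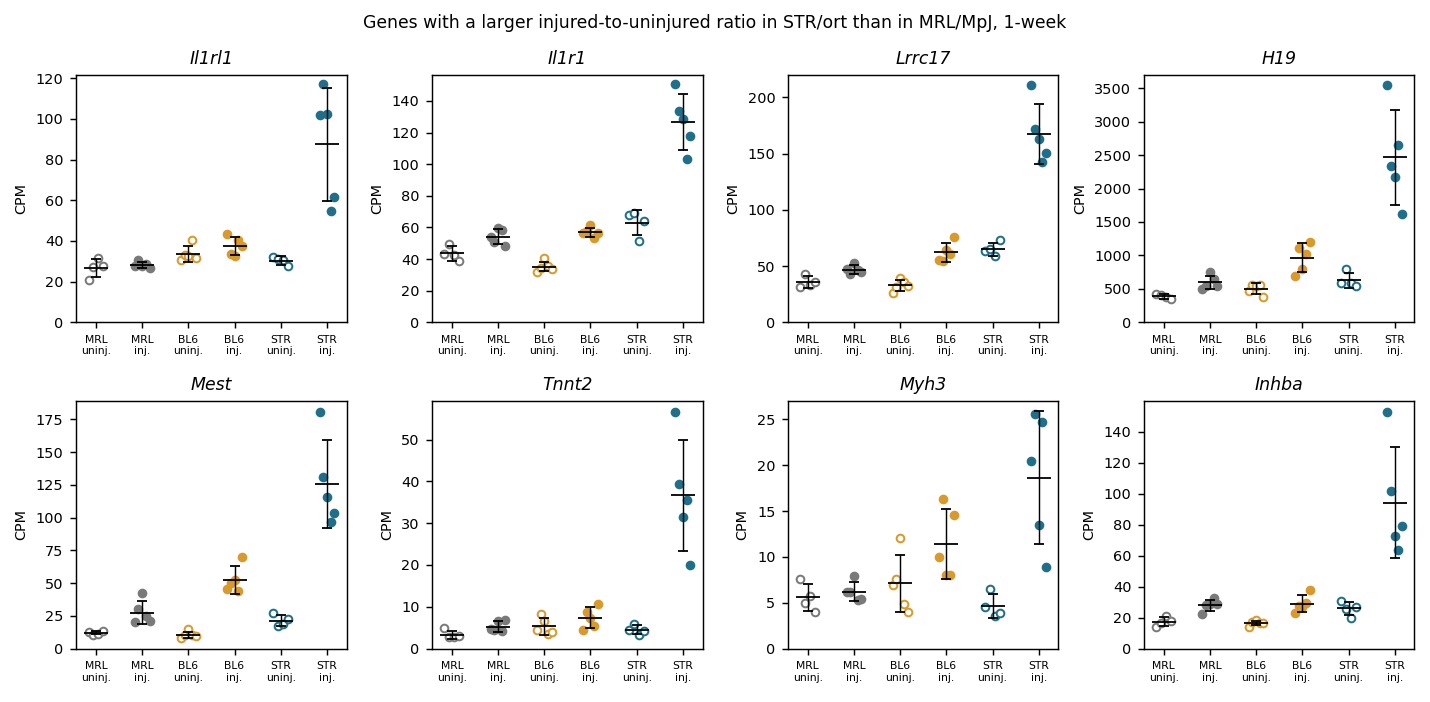
CPM (y axis, from 0) of 8 genes with a higher response in STR/ort, in uninjured (open) and injured (filled) joints of MRL/MpJ, C57BL/6 (BL6) and STR/ort at 1-week, with points for libraries and bars for mean ± SD (n = 4 or 5). For Il1rl1 and Tnnt2 every injured STR/ort library lies above every MRL/MpJ library, with Tnnt2 reaching 56.6 CPM.

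Other genes of higher response in STR/ort were of several kinds, and only some of the group are named here. Col12a1, a collagen of loaded tendon and of wounds, rose by 1.99 ± 0.21 in STR/ort and 0.79 ± 0.20 in MRL/MpJ, opposite to its fibril-associated relative Col14a1 in the sign of the interaction (1.20 ± 0.28, adjusted p = 0.0294). Acta2, smooth muscle actin, was picked after its values were seen, with an interaction of 1.14 ± 0.28 (adjusted p = 0.0402). Inhba, the subunit of activin A, was the 1 gene of 31 in the TGF-beta and BMP list to pass, at 30.9, 25.8, 20 and 26.7 CPM uninjured and 153, 102, 72.6, 63.9 and 79.2 CPM injured in STR/ort and 14.2, 16.4, 20.8 and 18 and 22.2, 28.2, 28.4, 32.3 and 28.6 CPM in MRL/MpJ. All injured STR/ort libraries lay above the others. The thrombin receptor F2r and the protease-activated receptor F2rl1, in an added list of 6 genes, rose in STR/ort by 0.91 ± 0.08 and 2.15 ± 0.27, beside 0.32 ± 0.09 and 0.38 ± 0.31 in MRL/MpJ. Rdh10, which oxidises retinol, rose by 1.01 ± 0.16 in STR/ort, beside -0.01 ± 0.17 in MRL/MpJ. The leucine-rich repeat protein Lrrc17, a known inhibitor of osteoclast formation, rose in STR/ort from 64.9 ± 6.02 to 168 ± 26.7 CPM and was 35.6 ± 5.21 and 46.9 ± 3.81 CPM in MRL/MpJ (interaction 0.97 ± 0.17, adjusted p = 0.0019), a call lost against 0-day joints (0.58 ± 0.26, adjusted p = 0.0982). The matricellular gene Smoc2, the lipid phosphatase gene Plpp1, the racemase gene Amacr, the calcineurin-dependent transcription factor gene Nfatc2 and the G protein regulator gene Rgs4 rose in STR/ort by 0.87, 0.79, 1.49, 1.13 and 1.25, with MRL/MpJ responses between -0.03 and 0.27. Bcl6b, a transcriptional repressor of endothelium and lymphocytes, had responses of 0.87 ± 0.14 and -0.29 ± 0.13, but its strain difference turned direction against 0-day joints, to -0.52 ± 0.20 (adjusted p = 0.0564). Nr4a3, an immediate early nuclear receptor gene, differed in another way: it fell by 1.43 ± 0.39 in MRL/MpJ, where uninjured replicate 2 stood at 14.6 CPM and the other uninjured libraries at 4.54 to 5.54 CPM. Its call was lost without that library and in 11 of 29 other settings in all, and against 0-day joints its strain difference was 0.03 ± 0.48 (adjusted p = 0.979). The calls of F2r, F2rl1 and Col12a1 were lost in 12, 11 and 9 of the settings.

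When the joints of uninjured 0-day mice stood in for the contralateral joints, the higher genes kept most of their calls and the lower genes did not. This comparison was chosen after the results were seen, used 4 joints of each strain from the same batch, and called 2472 of 17310 genes (14.3%), 1111 higher (6.42%) and 1361 lower (7.86%). It used the same injured libraries on which both sets of genes had been called. A kept call is therefore no separate support, here or for the genes named above. Of the 63 higher genes 44 were called again with the same sign and the median was 1.00. Of the 90 lower genes 15 were, and their median moved from -1.11 to -0.25. The contralateral joints of STR/ort were above 0-day for 86 of the 90 lower genes, with 65 called and a median of 0.85, beside a median of -0.02 in MRL/MpJ with 0 called (edgeR, 3 at an unadjusted p below 0.05, and 0 by DESeq2). Since the lower genes were called on these same contralateral libraries, this shift describes them and tests nothing. Against 0-day, 37 of the 90 rose and 7 fell in injured STR/ort joints, where 12.5% of all genes rose and 11.1% fell (23.6% in all). In injured MRL/MpJ joints 50 of the 90 rose and 0 fell, where 2.81% of all genes rose and 0.318% fell (3.13% in all).

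**Figure D4:**
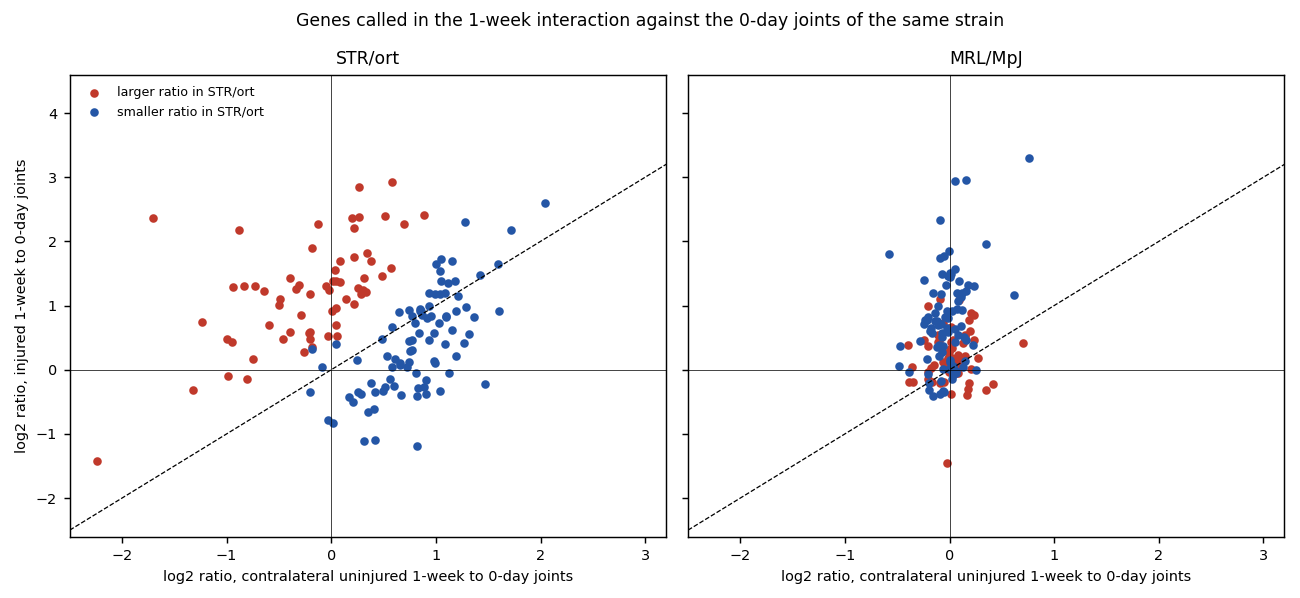
Log2 ratio to 0-day joints of the same strain, for contralateral (x axis) and injured joints (y axis) at 1-week in STR/ort (left) and MRL/MpJ (right), 1 point per gene, red for the 63 higher and blue for the 90 lower genes, with a dashed line of equal ratios. The blue points lie to the right in STR/ort, with a median of 0.85 on the x axis, and around -0.02 in MRL/MpJ.

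Prg4 was 4301 ± 1455 CPM (SD, n = 4) at 0-day, 10502 ± 5335 CPM in contralateral and 8438 ± 1580.2 CPM in injured joints of STR/ort, and 1092 ± 189, 1237 ± 38.2 and 2714 ± 215 CPM in MRL/MpJ. Against 0-day its strain difference in response was -0.34 ± 0.29 (adjusted p = 0.439). Mmp3 was 15.2 ± 8.75, 63.9 ± 29.7 and 93.2 ± 18.4 CPM in STR/ort in the same order, with a strain difference of -0.35 ± 0.49 (adjusted p = 0.654). Col14a1 kept a lower response in STR/ort, -0.66 ± 0.23 (adjusted p = 0.033) and its contralateral STR/ort level was 1.28 ± 0.17 from 0-day. Lyve1 had a strain difference of -0.47 ± 0.24 (adjusted p = 0.153), and was 1.13 ± 0.16 in contralateral and -0.05 ± 0.16 in injured STR/ort joints relative to 0-day. Among the higher genes, Il1rl1 had a strain difference of 1.54 ± 0.22, Tnnt2 of 1.73 ± 0.40 and Inhba of 1.52 ± 0.25, with adjusted p-values of 2.78e-06, 0.00119 and 2.84e-05. For H19, which turned direction, the contralateral level was -1.24 ± 0.19 from 0-day in STR/ort and 0.23 ± 0.19 in MRL/MpJ. For Bcl6b these contralateral levels were -0.99 ± 0.15 and 0.70 ± 0.16. The strain differences of Comp, Dcn, Folr2, Chil3 and Ntn1 also turned direction, to between 0.01 and 0.37, and 24 of 54 called named genes kept their call.

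The same interaction was computed at 1-day and at 2-weeks, each in its own fit of separate joints, and at 2-weeks in another sequencing batch. It called 28 genes (0.162%) at 1-day, 4 higher in STR/ort (0.0231%) and 24 lower (0.139%), and 78 (0.451%) at 2-weeks, 75 higher (0.433%) and 3 lower (0.0173%). Of the lower genes of 1-week, 82 of 90 at 1-day had a negative interaction, beside 56.2% of all genes, with a median of -0.60, and 10 were called lower and 1, the histidine ammonia-lyase gene Hal, was called higher. At 2-weeks 64 of them were negative, beside 48.6% of all genes, and 1 was called. Of the higher genes, 31 of 63 were positive at 1-day, beside 43.8% of all genes, with 0 called (edgeR, 12 at an unadjusted p below 0.05 beside 1175 of 17310 genes, and 0 by DESeq2). At 2-weeks 59 of them were positive, beside 51.3% of all genes, with a median of 0.39, and 11 were called. Col14a1 had interactions of -1.22 ± 0.25 at 1-day and -0.24 ± 0.28 at 2-weeks, Prg4 of -0.78 ± 0.22 and -0.32 ± 0.24. For Il1rl1 these were 0.57 ± 0.17 and 0.65 ± 0.23, and for Tnnt2 0.46 ± 0.37 and 0.67 ± 0.43. Differences between the times were not tested.

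**Figure D5:**
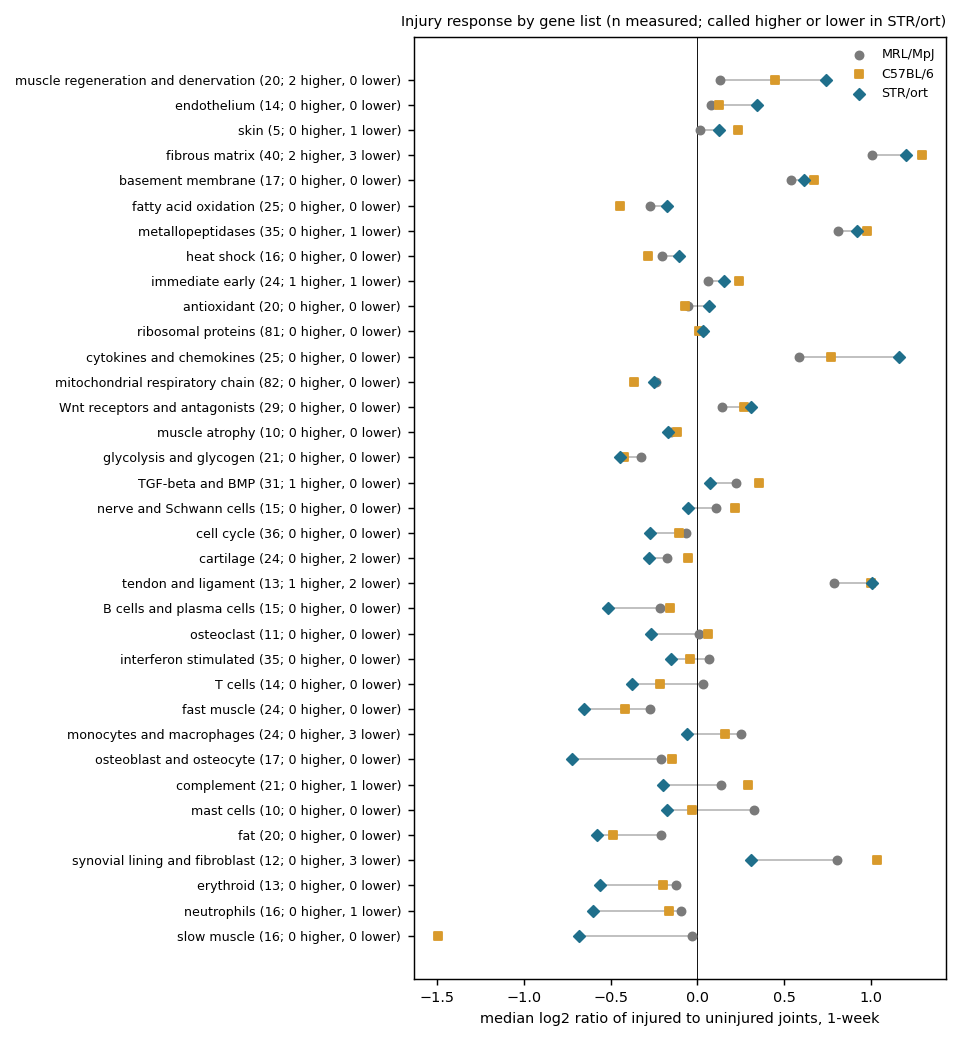
Median log2 ratio of injured to uninjured joints at 1-week (x axis) over the measured genes of each list (y axis, with the number measured and called), for MRL/MpJ (circles), C57BL/6 (squares) and STR/ort (diamonds), sorted by the median interaction. Neutrophil genes have medians of -0.60 in STR/ort and -0.10 in MRL/MpJ, and genes of muscle regeneration and denervation of 0.74 and 0.13.

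The fixed lists of cytokine and chemokine, osteoblast and osteocyte, and endothelial genes held no gene that passed the test of the interaction, which does not show that the strains responded alike. Their counts at an unadjusted p below 0.05 stand beside 2223 of all 17310 genes. Of 25 cytokine and chemokine genes 0 passed (edgeR, 2 at an unadjusted p below 0.05, and 0 by DESeq2), although 14 rose in STR/ort and 6 in MRL/MpJ, beside 5.67% and 2.93% of all genes. Il6 and Cxcl5 had interactions of 1.27 ± 0.85 and 1.08 ± 0.62, and the macrophage chemokine gene Ccl8 of -1.62 ± 0.71, so that differences of more than 2-fold could not be told from 0 for these genes. All 17 osteoblast and osteocyte genes had a negative interaction, beside 54.4% of all genes, with a median of -0.35, 10 fell in STR/ort and 0 in MRL/MpJ, beside 3.54% and 0.191% of all genes, and 0 passed (edgeR, 4 at an unadjusted p below 0.05, and 0 by DESeq2). Of 14 endothelial genes 12 were positive, beside 45.6% of all genes, and 0 passed (edgeR, 6 at an unadjusted p below 0.05, and 0 by DESeq2). Among 23 genes that the study's text takes up at this time, which were chosen on these samples, only Mmp3 and Myoc passed. The secreted Wnt antagonists Sfrp1 and Sfrp2 rose in both strains, by 1.91 and 1.75 in STR/ort and 1.17 and 2.41 in MRL/MpJ, with interactions of 0.74 ± 0.23 and -0.66 ± 0.31. The gelatinase gene Mmp2 rose in both by 1.27 ± 0.15 and 1.35 ± 0.15, an interaction of -0.08 ± 0.21. The slow muscle genes Myh7, Myl2 and Myl3 had STR/ort responses of -2.02, -1.66 and -2.28 and interactions of -2.01 ± 0.83, -1.34 ± 0.67 and -1.59 ± 0.61, none of which passed. Against 0-day joints, however, the strain differences of Sfrp1 and of these slow muscle genes passed with the same sign, and that of Mmp2 passed as higher in STR/ort.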

How the data were processed

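Whole knee joints were sequenced as poly(A) RNA. Per the labels and the study's methods, the authors aligned reads to mm10, a C57BL/6-based build, with TopHat2 2.0.11, so reads of STR/ort and MRL/MpJ that differ from it may be lost, and counted them per gene with featureCounts. The deposited values are raw counts, 1 column per library, not normalized. None of 17310 gene names fell under the study's filter of 2 counts in 5 libraries (3 repeated names were dropped). All 28 libraries of 1-week (18 of STR/ort and MRL/MpJ, 7520285 to 12253482 counts each, and 10 of C57BL/6) were fitted together in edgeR 4.0.16 (R 4.3.3) with TMM scaling, 1 mean per strain and joint and quasi-likelihood tests, which left 22 residual degrees of freedom. Genes were called at a Benjamini-Hochberg adjusted p below 0.05 and a ratio above 1.5. Errors of log2 values are SE, those of CPM are SD. The p-values cover the spread between libraries, which the fit took as independent. Uninjured joints were contralateral joints of injured mice, so some libraries may share a mouse, which the labels do not give. Of 32 pairs of libraries within groups 0 were identical.

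The text names, for either direction, the 12 genes of lowest adjusted p among called genes averaging at least 1 CPM, up to 4 called genes of each list, and genes in the study's text (1 gene and the count of its list are not reported here). Members and 38 lists were chosen with earlier results of these data known, and 7 lists and the comparisons with 0-day were added later. Alternatives were other scalings, RUV factors from 25 housekeeping genes, DESeq2 1.42.0, other filters and groups, a fast muscle covariate, replicate blocks and leaving out each library. Scripts were tested on simulated data. Positions were matched for 16662 genes by symbol to RefSeq (GRCm38.p6), which also gave the promoters, and 24 names altered to dates could not be matched. Counts shared by near-identical copies (C4b and C4a, Chil3 and its paralogues) are uncertain. Columns of no other samples were present.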

Additional observations from a re-analysis of the deposited data

Results flagged for a closer look

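The 153 genes called in the interaction were defined by the test of the difference between STR/ort and MRL/MpJ itself. At an adjusted p below 0.05 some of them may be false calls. Single libraries stood apart from their group in 12 of 236 groups of 4 or 5 libraries, by Dixon's criterion. The groups were examined for the named genes and for the summed levels of some lists. Chance alone meets the criterion in about 1 in 20 groups, so the count is near what chance gives. Uninjured MRL/MpJ libraries accounted for 5 of them. Replicate 1 held 4.80 CPM of Tnnt2 (others 2.65 to 2.92). Replicate 2 held 8.51 CPM of Megf10 (others 6.76 to 7.03), 38.9 CPM of Tnxb (others 45.7 to 45.9) and 14.6 CPM of Nr4a3 (others 4.54 to 5.54), and replicate 3 held 4.65 CPM of Sema3e (others 6.92 to 7.13). Among injured MRL/MpJ libraries, replicate 3 held 15.7 CPM of Amacr (others 11 to 11.9). In STR/ort, injured replicate 1 held 105 CPM of Rgs4 (others 75.2 to 82.1) and 28.9 CPM of Lyve1 (others 39.4 to 42.1). Injured replicate 5 held 882 CPM of Prelp (others 595 to 674) and 124 CPM of Cdon (others 92.1 to 95.5). Uninjured replicate 3 of STR/ort held 2247 CPM of Dcn (others 3497 to 3666), and its replicate 2 held 6.09 CPM of Chrna1 (others 3.08 to 3.53).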

How the results depend on the processing

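The number of genes called in the 1-week interaction, 153, became 148 with RLE size factors, 135 with housekeeping scaling, 201 with 1 RUV factor and 164 with a stricter filter on low counts. It rose to 247 with 2 RUV factors, 230 with DESeq2, 395 with a fast muscle covariate and 2472 with 0-day joints in place of contralateral ones, the last chosen after seeing the data, and dropped to 91 when only the 4 groups of the comparison were fitted. All 153 genes kept their sign under the scalings, the RUV factors, the muscle covariate and the replicate block. Leaving out single libraries gave 96 to 240 calls at 1-week, 6 to 76 at 1-day (moving the count by more than 1.5 times for 16 of 20 libraries) and 21 to 150 at 2-weeks (11 of 20). Without STR/ort uninjured replicate 3 the 1-week calls were 39 higher and 148 lower. At 2-weeks the count of 78 became 49 with RLE size factors, 133 with 2 RUV factors, 37 with the stricter filter and 36 with only the 4 groups. With 2 RUV factors the strain difference called 2095 genes in uninjured and 3310 in injured joints, beside 4221 and 5101. Housekeeping scaling split these 1866 higher and 2686 lower, and 2010 and 3421, against 56.2% and 50.9% higher before. The causes were not tested.

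Whether same-numbered joints came from 1 mouse is not given. Their deviations correlated at 0.164 to 0.371 in STR/ort, where each of 4 libraries correlated best with its own number, but at 0.0797 to 0.178 in MRL/MpJ, where 2 of 4 did and 1 pair lay below 0.1, so the numbers were not taken as pairs. Paired by neighbouring library number, the MRL/MpJ correlations were -0.121 to 0.305, with 2 of 4 pairs below 0.1. With the replicate block 341 genes were called, 141 higher and 200 lower, 144 of them among the 153, and with blocks of neighbouring library numbers 318. The comparisons of strains within a joint type could not be fitted with the block.

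Of 54 called named genes, 34 kept their call in all 29 settings other than the 0-day reference and none changed sign in those. Over these genes and settings 184 of 1566 values lost the call, most often those of Chil3 (21 of 29), Chrna1 (17), Klf4 (16) and Has1 (15). Among genes that were not called, the interaction of B4galnt2 (0.01) became -0.031 with 1 RUV factor and lay at -0.079 to 0.17 without single libraries. That of Mmp2 (-0.08) lay at -0.23 to 0.024, above 0 without STR/ort uninjured replicate 2 or MRL/MpJ uninjured replicate 2, and that of Trpm1 (0.33) at -0.051 to 1.09, below 0 without STR/ort uninjured replicate 3. Of 609 values of the 21 uncalled genes 20 gained a call, most often those of Adamts1 (7 of 29), Sfrp1 (3) and Fbxo32 (3).

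With 0-day joints in place of contralateral ones 24 of the 54 called genes kept their call, 23 lost it with the same sign and 7 turned direction: Bcl6b to -0.52, H19 to -0.11, Dcn to 0.032, Comp to 0.37, Folr2 to 0.0069, Chil3 to 0.085 and Ntn1 to 0.039. Of 21 genes of the study's text that were not called, 9 gained a call with the same sign and 8 turned direction: Sfrp2 to 0.084, Mmp2 to 0.92, Mmp19 to 0.69, Adamts1 to -0.75, Fbxo32 to -0.80, Mamdc2 to 1.36, B4galnt2 to -0.51 and Tpsab1 to 0.37.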

Other observations

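Some genes outside the naming rule, chosen after their values were seen, also responded differently in the strains. Igfn1, a sarcomeric protein of recovering muscle, was 37.3 ± 16.4 CPM uninjured and 112 ± 39.2 CPM injured in STR/ort and 86 ± 18 and 58.2 ± 13.5 CPM in MRL/MpJ (SD, n = 4 and 5; interaction 2.14 ± 0.44, adjusted p = 0.0114). Itm2a, a membrane protein of muscle and cartilage precursors, rose in both strains, by 2.07 ± 0.16 and 1.20 ± 0.16. Bmpr1b, a BMP receptor, rose by 2.22 ± 0.33 in STR/ort beside 0.19 ± 0.31 in MRL/MpJ, and the Wnt ligand gene Wnt5a had an interaction of 1.29 ± 0.29 (adjusted p = 0.022). Nos2, the inducible nitric oxide synthase, was measured at 2.4, 2.03, 1.08 and 1.92 CPM uninjured and 3.34, 4.16, 4.22, 4.46 and 6.96 CPM injured in STR/ort and at 2.46, 3.8, 2.47 and 2.82 and 2.1, 1.71, 2.95, 1.95 and 3.73 CPM in MRL/MpJ. Tnfrsf11b, osteoprotegerin, a decoy receptor that restrains osteoclasts, had a lower response in STR/ort (-0.91 ± 0.20, adjusted p = 0.0163), with 39.5 ± 4.76 CPM uninjured and 28.2 ± 6.7 CPM injured. Against 0-day joints the strain difference of Tnfrsf11b turned to 0.10 ± 0.22 (adjusted p = 0.787), and those of Wnt5a and Nos2 lost their calls, at 0.55 ± 0.27 and 0.41 ± 0.33 (adjusted p = 0.145 and 0.403).

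Of 13 tendon and ligament genes, Col12a1 had a higher and Col14a1 and Angptl7 a lower response in STR/ort, and of 24 immediate early genes Nr4a3 a higher and Klf4 a lower one. The other lists not taken up above held 0 calls in the interaction by edgeR. Their counts at an unadjusted p below 0.05 stand beside 2223 of all 17310 genes. All 13 erythroid genes and all 10 mast cell genes had a negative interaction, beside 54.4% of all genes, with medians of -0.43 and -0.38 (1 and 3 at an unadjusted p below 0.05), as had 33 of 36 cell cycle genes (median -0.21, 1 such gene), 33 of 35 interferon stimulated genes (median -0.29, 3 such genes), 17 of 20 fat genes (median -0.41, 7 such genes), 12 of 14 T cell genes (median -0.30, 1 such gene) and 12 of 15 B cell genes (median -0.24, 3 such genes, and 1 called higher by DESeq2). The medians were nearer 0 for 82 respiratory chain genes (-0.03) and 81 ribosomal protein genes (-1.7e-05), neither with an unadjusted p below 0.05, and for 25 fatty acid oxidation genes (0.12, 1 such gene), 21 glycolysis genes (-0.12, 1 such gene) and 17 basement membrane genes (0.12, 1 such gene). Slow muscle (16 genes, median -0.64, 4 such genes), muscle atrophy (10 genes, -0.11, 2), osteoclast (11 genes, -0.26, 2) and nerve genes (15 genes, -0.16, 3) also had negative medians. The 29 Wnt receptor and antagonist genes had 5 such genes in each direction (median -0.09, and 1 called in each direction by DESeq2), and 20 antioxidant genes had 6 higher and 2 lower (median 0.03). Of 16 heat shock genes 1 was such a gene (median 0.07), and none of 25 housekeeping (median -0.01) or 5 sex-linked genes (median 0.00) was. DESeq2 called 1 higher and 3 lower tendon and ligament genes, 1 higher and 1 lower immediate early gene, and 0 genes in the remaining lists of this paragraph.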
